A study of Mus musculus with 36 samples.

Results

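The genes described here are the 10 genes of V(D)J recombination and of the classical end-joining pathway that completes it, Rag1, Rag2, Dntt, Xrcc6, Xrcc5, Prkdc, Dclre1c, Lig4, Xrcc4 and Nhej1. They were chosen by name from the 40354 genes of the count tables, and all 10 were present in the count and the log2 tables and passed the low-count filter of every fit. Their mRNA was followed by RNA-seq during the conversion of B cells into macrophages (B cell to macrophage transdifferentiation). B cells of C57BL/6J mouse bone marrow were infected with a C/EBPα-ER-hCD4 retrovirus. In it the myeloid transcription factor C/EBPα is fused to the estrogen receptor, and estradiol (E2) moves the fusion into the nucleus. Infected cells were enriched for the hCD4 tag and plated on inactivated mouse embryonic fibroblast feeders with IL-7, and the induction medium also held IL-3, FLT-3, CSF-1 and SCF. The paper describes feeder removal by differential adherence for its phagocytosis assay, and its RNA-sequencing methods do not mention it. Fibroblast transcripts were present in the libraries, as given below.

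The construct was wild-type C/EBPα or C/EBPα with arginine 35 replaced by alanine (R35A) or by lysine (R35K). Libraries came from cells before E2 (0 hr) and from cells 1, 3, 6, 18 or 120 hr after it (hours post induction, hpi). With 2 biological replicates in every one of the 18 pairings of construct and time, there were 36 libraries. The 0 hr cells of each construct had been infected with the same virus as the later ones and served as its reference. The construct is expressed from a retrovirus in a mixed culture rather than from the endogenous gene, and the R35K libraries have count tables of their own. A difference in level between R35K and the other constructs therefore cannot be told apart from one between the sets of tables. This limit holds for every order of levels with R35K given below. Levels are given as CPM, the counts scaled to the same TMM-adjusted total in every library, with TMM factors from all 36 libraries together. Fold changes and adjusted p-values come from edgeR's quasi-likelihood test with Benjamini-Hochberg adjustment over all genes tested. Fits of fewer libraries have TMM factors of their own, so a ratio of printed CPM can differ from the printed fold. At 120 hpi the CPM of the end-joining genes give smaller falls and larger rises than the folds in every construct. A gene was called changed at a fold of at least 1.5 and an adjusted p of at most 0.05.

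V(D)J recombination assembles the antigen receptor genes of developing lymphocytes. The RAG recombinase, made of the Rag1 and Rag2 proteins, cuts the DNA beside the gene segments and leaves a hairpin on each coding end. Ku and DNA-PKcs then bind the ends, Artemis opens the hairpins, terminal deoxynucleotidyl transferase (TdT, encoded by Dntt) adds untemplated nucleotides, and the XRCC4, XLF and DNA ligase IV complex seals the joint. Rag1, Rag2 and Dntt are restricted to lymphoid precursors, whereas the end-joining genes are used in most cell types to repair double-strand breaks.

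Between 13044456 and 23131776 reads were counted per library. At 0 hr and at 120 hpi the defining markers went with the cell types the labels give, B cells and macrophages. The summed level of 5 B-lineage markers (Cd79a, Cd79b, Vpreb1, Igll1 and Ms4a1) lay between 1600 and 1790 CPM in the 0 hr libraries and between 54.98 and 133 CPM at 120 hpi, where 1 of the 5 was at 3 counts or fewer in every library of each construct. That of 6 macrophage markers (Itgam, Csf1r, Lyz2, Cd14, Adgre1 and Cd68) was at most 64.4 CPM at 0 hr and between 17800 and 29090 CPM at 120 hpi. That of 6 fibroblast markers (Col1a1, Col1a2, Col3a1, Dcn, Lum and Pdgfrb) was not constant: it lay between 866 and 950 CPM at 0 hr, between 1227 and 2375 CPM from 1 to 18 hpi, and between 122 and 451 CPM at 120 hpi, with Lum at 0 counts at 120 hpi. T-lineage markers, of another lineage that uses RAG, summed to at most 1.92 CPM. Since the measurements were made on bulk RNA, fewer cells of a type and less RNA per cell cannot be told apart.

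The promoters of the recombinase genes and of Dclre1c are shown because these genes had the largest falls and the largest rise of the group. Promoters of 9 of the 10 genes were found in the RefSeq table (10 sequences, of which 2 belong to Lig4), Prkdc being the exception. Each sequence is the 250 bases before the RefSeq start, 5′ to 3′ on the gene's own strand, and capitals mark matches to the motifs named after them. The build is GRCm38.p6. The RefSeq starts of Rag1 and Rag2 lay 31 and 6 bases from those of GENCODE vM21, and those of Dntt and Dclre1c lay 0 bases away. The first bases after the RefSeq start were found in a GENCODE transcript of the gene for Dntt and Dclre1c, but not for Rag1 and Rag2. Among the sequences searched but not printed, that of Xrcc6 lay 28534 bases away and the second of Lig4 1375. The RefSeq start of Rag1, at base 101649532, is also the GENCODE start of B230118H07Rik on the same strand, a gene described below.
Rag1 promoter, chr2:101649533-101649782, minus strand: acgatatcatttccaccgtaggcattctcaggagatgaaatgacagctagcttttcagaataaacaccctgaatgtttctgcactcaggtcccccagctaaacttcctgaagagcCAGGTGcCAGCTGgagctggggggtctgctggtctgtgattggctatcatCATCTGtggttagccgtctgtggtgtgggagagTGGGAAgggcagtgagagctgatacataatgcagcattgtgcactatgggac
Rag2 promoter, chr2:101624462-101624711, plus strand: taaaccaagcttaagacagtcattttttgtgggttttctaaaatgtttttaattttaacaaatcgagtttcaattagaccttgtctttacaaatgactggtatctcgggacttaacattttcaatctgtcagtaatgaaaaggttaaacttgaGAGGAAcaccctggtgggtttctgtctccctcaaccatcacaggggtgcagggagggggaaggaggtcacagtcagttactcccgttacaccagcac
Dntt promoter, chr19:41029025-41029274, plus strand: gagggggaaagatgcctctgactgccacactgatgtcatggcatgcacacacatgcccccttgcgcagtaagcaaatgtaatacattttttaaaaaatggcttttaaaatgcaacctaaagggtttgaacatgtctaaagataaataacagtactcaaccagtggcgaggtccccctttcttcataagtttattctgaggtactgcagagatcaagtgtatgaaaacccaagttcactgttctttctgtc
Dclre1c promoter, chr2:3423881-3424130, plus strand: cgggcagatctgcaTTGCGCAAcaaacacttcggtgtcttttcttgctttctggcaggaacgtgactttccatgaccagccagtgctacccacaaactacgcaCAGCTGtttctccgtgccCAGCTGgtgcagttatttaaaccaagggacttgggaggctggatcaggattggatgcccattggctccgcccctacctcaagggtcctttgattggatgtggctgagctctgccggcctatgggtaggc

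Both strands of the 10 sequences were searched for 7 motifs of factors with known roles in B or myeloid cells, and no matches of different motifs overlapped. The C/EBP motif (TTGCNNAA) matched 2 of the 10 sequences, those of Dclre1c and Xrcc5, against 9.56% of 32851 RefSeq promoters of the same length. In Dclre1c the match began 236 bases before the start and in Xrcc5 32 bases before it. The PU.1 motif (GAGGAA) matched Rag2, 97 bases before the start, and 1 of the Lig4 sequences, against 23.25% of all promoters. The E-box (CAGNTG) matched 4 sequences against 44.8% of all, and the Rag1 sequence held 3 matches. The Ikaros motif (TGGGAA) matched 2 against 21.6%, in Rag1 and Lig4. The EBF, FOXO (TGTTTAC) and CRE (TGACGTCA) motifs had 0 matches, against 0.779%, 3.17% and 1.55% of all promoters. A match says only that these letters stand in the window.

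Before induction, TdT was the most abundant of the 10 transcripts for its length. In wild-type cells at 0 hr the mean level per kilobase of exon was 63.1 CPM for Dntt, 29.3 for Xrcc6, 14.2 for Xrcc5, 12.45 for Rag1, 10.7 for Lig4, 5.01 for Rag2, 4.42 for Prkdc, 2.65 for Dclre1c, 2.44 for Nhej1 and 2.19 for Xrcc4. The 10 genes stood in this order in R35A and R35K cells at 0 hr as well. The replicate ranges of neighbours in the order overlapped for Rag2 and Prkdc in R35A cells and for Dclre1c and Nhej1 in R35K cells. At 120 hpi the order per kilobase was another one. In wild-type cells Dclre1c stood first at 26.1 CPM per kilobase, ahead of Xrcc6 at 5.29 and Xrcc4 at 5.24, whose ranges overlapped, and of Nhej1 at 4.02. Prkdc stood at 2.92, Xrcc5 at 1.56, Lig4 at 0.7435, Dntt at 0.0980, Rag1 at 0.0351, the ranges of these last 2 overlapping, and Rag2 at 0. These 2 samples per group set the spread, and the order is a description.

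The R35A and wild-type cells were compared at 0 hr to see whether they started alike in mRNA. For uninduced R35A cells the paper reports more accessible chromatin at B cell regulatory elements and proposes some leakiness of the construct. It reports no altered expression of the associated B cell genes against uninduced wild-type cells. No gene of the 16988 tested was called (0% lower and 0% higher) by edgeR's quasi-likelihood test or by DESeq2, and 1618 genes had an unadjusted edgeR p of at most 0.05. Of the 10 genes, 0 were called by either tool and 2, Xrcc6 and Prkdc, had an unadjusted p of at most 0.05, with log2 differences (R35A minus wild type) of −0.12 for both. With no low-count filter 9 genes were called lower and 7 higher, with 0 of the 10 among them.

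Rag1 encodes the subunit of the recombinase that cuts the DNA. Its level in wild-type cells was 82.9 and 81.7 CPM at 0 hr, 16.8 and 16.0 at 1 hpi, 14.0 and 10.0 at 3 hpi, 10.5 and 9.64 at 6 hpi, 3.70 and 5.04 at 18 hpi, and 0.177 and 0.287 at 120 hpi. In R35A cells it was 76.4 and 75.9 CPM at 0 hr, 5.63 and 5.28 at 1 hpi, 5.34 and 6.53 at 3 hpi, 6.73 and 7.15 at 6 hpi, 3.02 and 2.92 at 18 hpi, and 0 and 0.303 at 120 hpi. In R35K cells it was 81.3 and 81.0 CPM at 0 hr, 12.3 and 13.2 at 1 hpi, 16.5 and 14.8 at 3 hpi, 19.6 and 19.9 at 6 hpi, 5.91 and 6.06 at 18 hpi, and 0.418 and 0 at 120 hpi. Every later library lay below every 0 hr library of its construct, and the course was not the same in the 3 constructs. In wild-type cells the 1, 18 and 120 hpi libraries stood apart while those of 3 and 6 hpi overlapped. In R35A cells the 1 and 3 hpi libraries overlapped, and both 6 hpi libraries lay above them. R35K cells at 6 hpi also stood above R35K cells at 1 and 3 hpi. The fall from 0 hr to 1 hpi was 4.94-fold in wild-type cells (log2 −2.30 ± 0.09 SE, adjusted p = 1.22e-28), 14.2-fold in R35A cells (log2 −3.82 ± 0.10, adjusted p = 1.89e-35) and 6.61-fold in R35K cells (log2 −2.73 ± 0.08, adjusted p = 1.28e-25).

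Rag2 encodes the partner subunit, which binds modified histones and targets the complex. In wild-type cells its level was 16.9 and 17.45 CPM at 0 hr, 8.87 and 8.65 at 1 hpi, 8.22 and 6.44 at 3 hpi, 4.97 and 4.42 at 6 hpi, 1.28 and 1.39 at 18 hpi, and 0 in both libraries at 120 hpi. In R35A cells it was 14.1 and 15.6 CPM at 0 hr and 1.90 and 1.55 at 1 hpi, and it stayed between 1.81 and 2.44 at 3 and 6 hpi. In R35K cells it was 18.4 and 17.7 CPM at 0 hr, and the 6 libraries of 1 to 6 hpi lay between 4.78 and 5.56. At 1 hpi the ranges of the 3 constructs did not overlap, with wild type highest and R35A lowest. The fall to 1 hpi was 1.93-fold in wild-type cells (log2 −0.95 ± 0.11 SE, adjusted p = 3.05e-10), 8.75-fold in R35A cells and 3.71-fold in R35K cells.

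Dntt, which encodes TdT, went from 143 and 146 CPM in wild-type cells at 0 hr to 44.6 and 45.4 at 1 hpi, 31.2 in both libraries at 3 hpi, 20.1 and 20.9 at 6 hpi, 3.76 and 3.59 at 18 hpi, and 0.354 and 0.0956 at 120 hpi. In R35A cells it went from 145 and 143 CPM to 10.3 and 11.1 at 1 hpi, and was 9.57 and 8.64 at 6 hpi and 5.26 and 5.37 at 18 hpi. In R35K cells it went from 145 and 148 CPM to 25.2 and 24.1 at 1 hpi, and was 17.7 and 17.4 at 6 hpi and 7.32 and 7.84 at 18 hpi. The order of the constructs turned between 6 and 18 hpi: wild type was highest from 1 to 6 hpi and lowest at 18 hpi, with no overlap at any of these times. The fall to 1 hpi was 3.16-fold in wild-type, 13.6-fold in R35A and 6.17-fold in R35K cells, with edgeR adjusted p = 3.88e-31, 2.04e-43 and 1.12e-28.

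**Figure D1:**
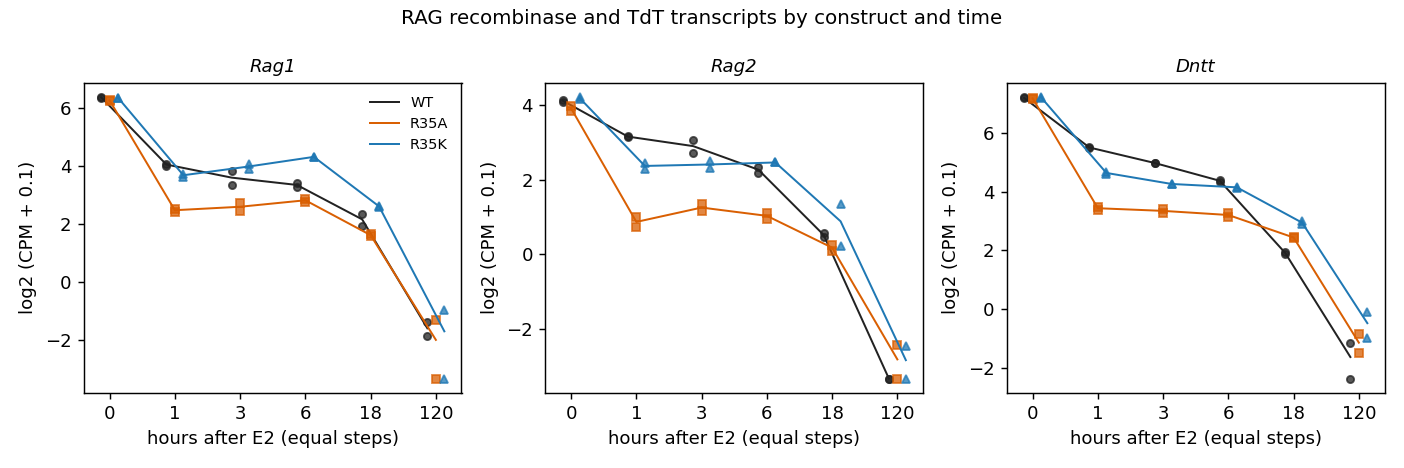
Level of Rag1, Rag2 and Dntt by time after E2, as log2 (CPM + 0.1), in wild-type (circles), R35A (squares) and R35K (triangles) cells. Each point is 1 library and lines join the means of the 2 replicates. At 1 hpi the R35A points stand lowest in all 3 panels, and at 6 hpi the R35K points of Rag1 (19.6 and 19.9 CPM) stand above the wild-type ones (10.5 and 9.64 CPM).

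At 120 hpi these 3 transcripts were at the limit of detection. Rag2 had 0 counts in both wild-type libraries against 491 at 0 hr, which makes it at least 124.5-fold lower with 3 counts over the group as the floor. It had 1 count in the R35A pair, a level 372-fold lower (95% counting interval 66.45 to 14720) than at 0 hr, and 1 in the R35K pair, 438-fold lower (78.3 to 17330). Rag1 had 5, 4 and 5 counts in the wild-type, R35A and R35K pairs, a level 358-fold lower (95% counting interval 153 to 1105), 474-fold lower (185 to 1741) and 394-fold lower (169 to 1215) than at 0 hr. Dntt had 5, 9 and 15 counts and was 630-fold (270 to 1941), 397-fold (209 to 869) and 238-fold lower (144 to 425). For each gene the intervals overlapped between the constructs that had one, wild-type Rag2 having a bound only. They cover counting error only. For Dntt the R35K minus wild-type difference in the change to 120 hpi had an unadjusted edgeR p of at most 0.05 and was not called.

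Ku, the ring that threads onto broken ends, had subunits with different courses. Xrcc6, which encodes Ku70, was at 128.5 and 134 CPM in wild-type cells at 0 hr, 80.0 and 74.0 at 1 hpi, 60.3 and 60.7 at 6 hpi, 23.2 and 23.6 at 18 hpi, and 24.1 and 23.2 at 120 hpi. R35A cells held it at 121 CPM in both libraries at 0 hr, 29.6 and 32.1 at 1 hpi, 22.9 and 22.7 at 18 hpi, and 26.4 and 29.2 at 120 hpi. R35K cells held it at 124 and 126 CPM at 0 hr and 48.1 and 47.3 at 1 hpi, and its 18 and 120 hpi libraries lay between 24.3 and 27.1. The 3 constructs did not overlap at 1 hpi, whereas at 18 hpi all 6 libraries lay between 22.7 and 24.7 CPM. Taking each construct's own log2 change at 120 hpi as the whole, Xrcc6 had covered 28.9% of it by 1 hpi in wild type, 89.0% in R35A and 60.5% in R35K.

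Xrcc5, which encodes Ku80, was at 34.8 and 37.6 CPM in wild-type cells at 0 hr, 22.9 in both libraries at 1 hpi, and between 19.0 and 21.9 from 3 to 18 hpi, with a further fall to 3.27 and 4.68 at 120 hpi. R35A cells went from 34.0 and 36.7 CPM to 19.0 and 20.5 at 1 hpi and to 9.30 and 10.8 at 120 hpi. R35K cells went from 37.9 and 34.2 CPM to 18.16 and 20.5 at 1 hpi and to 8.18 and 8.86 at 120 hpi. All libraries of 1 to 18 hpi lay between 15.6 and 22.9 CPM, and at 120 hpi both wild-type libraries lay below the 4 others. The fall from 0 hr to 120 hpi was 9.99-fold in wild-type cells (log2 −3.32 ± 0.12 SE), 3.83-fold in R35A cells (log2 −1.94 ± 0.09) and 4.54-fold in R35K cells (log2 −2.18 ± 0.12).

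Prkdc encodes DNA-PKcs, the kinase that Ku recruits to DNA ends. It was at 58.1 and 58.5 CPM in wild-type cells at 0 hr, 37.0 and 36.6 at 1 hpi, 26.2 and 24.4 at 18 hpi, and 39.7 and 37.3 at 120 hpi. It was at 55.9 and 51.2 CPM in R35A cells at 0 hr, 28.4 and 29.7 at 1 hpi and 39.2 and 41.0 at 120 hpi. R35K cells held it at 59.5 and 55.2 CPM at 0 hr, 30.7 and 31.2 at 1 hpi and 40.6 and 49.1 at 120 hpi. In all 3 constructs the 120 hpi libraries lay above the 18 hpi ones and below the 0 hr ones. Prkdc was called lower in 13 of the 15 changes from 0 hr, the exceptions being R35A and R35K cells at 120 hpi, where it was 1.45-fold and 1.37-fold lower. The wild-type call at 120 hpi (1.65-fold lower, log2 −0.73 ± 0.06 SE) lay close to the fold threshold. The mean levels of 58.3 CPM at 0 hr and 38.5 CPM at 120 hpi give a smaller fall than that fold. The call was lost with DESeq2's size factors and with DESeq2, where the log2 change was −0.57 in both. It was also lost with only the compared groups in the fit (−0.49) and without the second wild-type library of 120 hpi (−0.55).

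Dclre1c encodes Artemis, the nuclease that opens hairpins, and it moved the other way. In wild-type cells it was at 25.0 and 24.4 CPM at 0 hr, 70.0 and 72.3 at 1 hpi, 65.0 and 66.3 at 3 hpi, 72.3 and 64.7 at 6 hpi, 26.3 in both libraries at 18 hpi, and 238 and 249 at 120 hpi. In R35A cells it was at 25.0 and 23.5 CPM at 0 hr, 36.5 and 35.1 at 1 hpi, 39.8 and 38.7 at 3 hpi, 34.4 in both libraries at 6 hpi, 26.1 and 26.5 at 18 hpi, and 174 and 182 at 120 hpi. In R35K cells it was at 24.5 and 25.2 CPM at 0 hr, 44.1 and 42.9 at 1 hpi, 43.5 and 45.3 at 6 hpi, 28.5 and 26.3 at 18 hpi, and 215 and 230 at 120 hpi. Each construct thus had an early plateau, a return at 18 hpi to about its 0 hr level and its highest level at 120 hpi. Wild type was the highest of the constructs at 1, 3, 6 and 120 hpi, with no overlap, while at 18 hpi the 6 libraries lay between 26.1 and 28.5 CPM.

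The rise of Dclre1c from 0 hr to 1 hpi was 2.93-fold in wild-type cells (log2 1.55 ± 0.06 SE, adjusted p = 1.13e-27), 1.69-fold in R35K cells (log2 0.76 ± 0.06, adjusted p = 2.4e-12) and 1.46-fold in R35A cells (log2 0.54 ± 0.06, adjusted p = 2.08e-10), the last below the fold threshold. With DESeq2's size factors and with DESeq2 the R35A value was 0.62, past the threshold, as it was without the second R35A library of 1 hpi (0.60). At 18 hpi the change was 1.06-fold in wild-type cells (adjusted p = 0.263). At 120 hpi it was 9.02-fold in wild-type cells (log2 3.17 ± 0.05), 6.76-fold in R35A cells (log2 2.76 ± 0.05) and 8.36-fold in R35K cells (log2 3.06 ± 0.05). The fibroblast marker sum rose from 866 to 891 CPM in wild-type libraries at 0 hr to between 1911 and 1928 at 1 hpi and lay between 2102 and 2106 in R35A libraries at 1 hpi. The sum lay between 1734 and 1792 in R35K libraries at 1 hpi, and between 2238 and 2375 in wild-type libraries at 3 and 6 hpi. At 18 hpi the fibroblast sum was at 2277 to 2345 in wild-type cells, and at 120 hpi at 122 to 144. The part of fibroblasts in the level of Dclre1c was not tested.

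**Figure D2:**
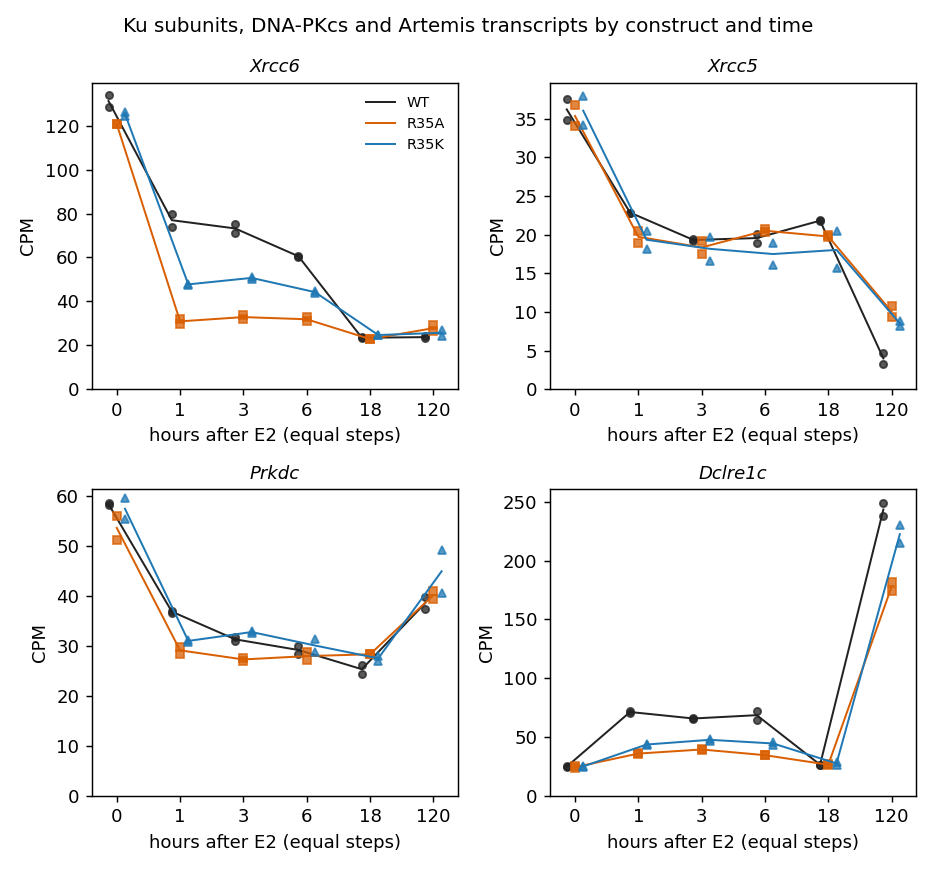
Level in CPM of Xrcc6, Xrcc5, Prkdc and Dclre1c by time after E2 in wild-type (circles), R35A (squares) and R35K (triangles) cells. Each point is 1 library and lines join the means of the 2 replicates. Xrcc6 meets at 22.7 to 24.7 CPM at 18 hpi, and Dclre1c reaches 174 to 249 CPM at 120 hpi.

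The 3 genes of the ligation complex did not move together. Lig4, the ligase that seals the joint, was at 54.4 and 56.6 CPM in wild-type cells at 0 hr, 24.1 and 24.01 at 1 hpi, 14.5 and 15.2 at 6 hpi, 11.7 and 12.8 at 18 hpi, and 3.63 and 4.11 at 120 hpi. R35A cells held it at 48.4 and 55.2 CPM at 0 hr, 10.5 and 11.7 at 1 hpi, 8.92 and 9.31 at 18 hpi and 5.37 and 5.01 at 120 hpi. R35K cells held it at 53.5 and 53.9 CPM at 0 hr, 12.9 and 15.7 at 1 hpi, 13.1 and 12.0 at 18 hpi and 5.93 and 6.26 at 120 hpi. At 1 hpi both wild-type libraries lay above the 4 others, and at 120 hpi below them. Lig4 was called lower in 15 of the 15 changes and fell 15.7-fold by 120 hpi in wild-type cells (log2 −3.97 ± 0.11 SE, adjusted p = 1.52e-34), 10.9-fold in R35A cells and 9.44-fold in R35K cells.

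Xrcc4 encodes the scaffold that holds the ligase. It lay between 7.52 and 10.8 CPM in the wild-type libraries of 0 to 18 hpi and at 21.2 and 22.9 at 120 hpi. In R35A cells it was at 9.33 and 8.68 CPM at 0 hr and 22.4 and 21.2 at 120 hpi, and in R35K cells at 9.80 and 8.64 and then 22.5 and 20.1. The 120 hpi libraries stood apart from all earlier ones in each construct. The rise was 2.19-fold in wild-type (adjusted p = 4.05e-14), 2.23-fold in R35A (adjusted p = 2.93e-15) and 2.14-fold in R35K cells (adjusted p = 3.29e-11), and 0 of the 12 earlier changes were called.

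Nhej1 encodes XLF, which bridges XRCC4 complexes across the break. It had 35 to 76 counts per library. In wild-type cells it was at 2.81 and 2.64 CPM at 0 hr and 4.69 and 4.30 at 120 hpi, in R35A cells at 2.68 and 2.82 and then 5.46 and 4.10, and in R35K cells at 2.61 and 3.09 and then 3.76 and 4.47. Each construct's 120 hpi libraries lay above its 0 hr libraries. Nhej1 was called higher in wild-type cells at 120 hpi (1.51-fold, log2 0.59 ± 0.22 SE, adjusted p = 0.014) and in R35A cells (1.58-fold, log2 0.66 ± 0.21, adjusted p = 0.00355), and was 1.35-fold higher in R35K cells (adjusted p = 0.0519). The wild-type call was lost with no low-count filter (log2 0.52, adjusted p = 0.0511) and without the second wild-type library of 0 hr (log2 0.54, adjusted p = 0.0667), and the R35A call without the first R35A library of 120 hpi (log2 0.57). The R35K value passed with only the compared groups in the fit (log2 0.62, adjusted p = 0.0104) and without the first R35K library of 120 hpi (log2 0.64, adjusted p = 0.0185).

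**Figure D3:**
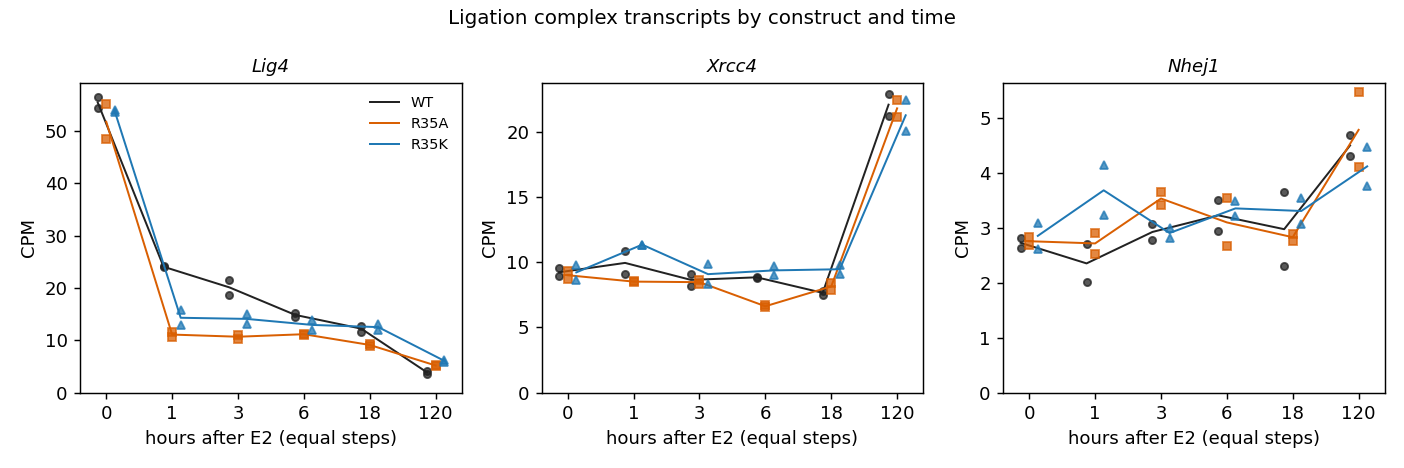
Level in CPM of Lig4, Xrcc4 and Nhej1 by time after E2 in wild-type (circles), R35A (squares) and R35K (triangles) cells. Each point is 1 library and lines join the means of the 2 replicates. Lig4 falls to 3.63 to 6.26 CPM at 120 hpi while Xrcc4 stands at 20.1 to 22.9 CPM.

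Counted over the 10 genes, 7 were called lower in wild-type cells at every later time, the recombinase genes, Dntt, both Ku genes, Prkdc and Lig4. Among all genes tested in wild-type cells, 9.27%, 11.5%, 14.7%, 23.2% and 40.2% were called lower at the 5 times in turn. Dclre1c was the 1 gene called higher at 1, 3 and 6 hpi, 0 were called higher at 18 hpi, and Dclre1c, Xrcc4 and Nhej1 were called higher at 120 hpi. Among all genes, 10.7%, 12%, 15.1%, 23.9% and 23.1% were called higher. The median log2 change of the 10 genes was −0.70 at 1 hpi and −2.96 at 120 hpi, against −0.01 and −0.36 over all genes tested. With DESeq2's size factors the median of all genes moved up by 0.16, 0.13 and 0.14 in wild-type, R35A and R35K cells at 120 hpi and by 0.12 in wild-type cells at 18 hpi, and the members' changes at these times are to be read against that shift.

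In R35A cells the same 7 genes were called lower from 1 to 18 hpi and 6 at 120 hpi, Prkdc being the exception. Among all genes tested, 18.9%, 19%, 19.2%, 21.6% and 39% were called lower at the 5 times. Higher calls were Dclre1c at 3 hpi and Dclre1c, Xrcc4 and Nhej1 at 120 hpi, with 0 of the 10 at 1, 6 and 18 hpi, against 18.3%, 17.9%, 18.5%, 21% and 24.2% of all genes at the 5 times. The median log2 change of the 10 genes was −1.45 at 1 hpi and −2.09 at 120 hpi, against −0.01 and −0.31 over all genes. DESeq2 called 1 of the 10 higher at 1 hpi, Dclre1c. Prkdc passed at 120 hpi (log2 −0.60) without the second R35A library of 0 hr. In R35K cells the 7 genes were again called lower from 1 to 18 hpi and 6 at 120 hpi, against 17.4%, 16.8%, 17.8%, 20.5% and 38.5% of all genes. Dclre1c was called higher at 1, 3 and 6 hpi, 0 of the 10 at 18 hpi, and Dclre1c and Xrcc4 at 120 hpi, against 15.5%, 15.9%, 16.3%, 18.4% and 25.4% of all genes. The median of the 10 was −1.20 at 1 hpi and −2.29 at 120 hpi, against −0.04 and −0.28 over all genes. The changes of a construct share its 2 libraries of 0 hr, so that they are not independent of each other.

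To find the genes whose change from 0 hr differed between constructs, the difference itself was tested as an interaction of construct and time. Against wild type, R35A cells at 1 hpi had 6 genes with a lower change (Rag1, Rag2, Dntt, Xrcc6, Dclre1c and Lig4), against 8.74% of all genes tested, and 0 with a higher one, against 5.29%. The median difference of the 10 genes was −1.04, against −0.02 over all genes. For Rag2 the log2 difference was −2.18 (95% interval −2.59 to −1.77, adjusted p = 1.05e-12), for Dntt −2.11 (−2.29 to −1.93, adjusted p = 1.82e-25) and for Rag1 −1.52 (−1.82 to −1.22, adjusted p = 2.77e-12). For Xrcc6 it was −1.24 (adjusted p = 3.25e-20), for Lig4 −1.07 (adjusted p = 4.03e-11) and for Dclre1c −1.01 (adjusted p = 2.01e-13). The sign has another meaning for Dclre1c than for the other 5: these had fallen further in R35A than in wild-type cells, whereas Dclre1c had risen less. For Xrcc5, Prkdc, Xrcc4 and Nhej1 the differences lay between −0.26 and 0.16, and the 95% intervals were −0.45 to −0.01, −0.44 to −0.08, −0.55 to 0.08 and −0.49 to 0.80.

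The same 6 genes were called at 3 hpi, against 7.43% of all genes lower and 5.53% higher, with differences from −1.65 for Dntt to −0.74 for Dclre1c. At 6 hpi 4 were called, Dntt at −1.17, Rag2 at −1.08, Dclre1c at −0.96 and Xrcc6 at −0.81, against 5.99% of all genes lower and 4.26% higher, and Rag1 and Lig4 no longer passed, at −0.42 and −0.32. At 18 hpi edgeR and DESeq2 called 0 of the 10, against 2.89% of all genes lower and 5.47% higher, and 4 had an unadjusted edgeR p of at most 0.05 (Rag1, Dntt, Prkdc and Lig4). Dntt, higher than in wild-type cells in both R35A libraries, stood at 0.53 (95% interval 0.22 to 0.84, adjusted p = 0.0106), below the fold threshold. Without the first wild-type library of 18 hpi, Rag1 passed at −0.65 (adjusted p = 0.0434). At 120 hpi Xrcc5 was called with a higher change in R35A cells, at 1.38 (95% interval 1.03 to 1.74, adjusted p = 5.85e-09), against 9.85% of all genes higher and 4.63% lower, and Lig4 passed at 0.62 only without the second R35A library of 0 hr.

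R35K cells stood between the other constructs at 1 hpi, with no overlap, for Rag1, Rag2, Dntt, Xrcc6, Prkdc, Dclre1c and Lig4. Of these 7, all but Rag1 (−0.35, adjusted p = 0.0389, below the fold threshold) and Prkdc (−0.23, adjusted p = 0.0563) were called with a lower change than in wild-type cells, which makes 5 called. The background was 5.08% of all genes lower and 6.84% higher. The differences were −0.89 for Dntt (adjusted p = 5.63e-14), −0.87 for Rag2 (adjusted p = 0.000175), −0.72 for Dclre1c (adjusted p = 1.26e-09), −0.70 for Lig4 (adjusted p = 1.08e-06) and −0.62 for Xrcc6 (adjusted p = 6.46e-11). The last was lost without the first wild-type library of 1 hpi (−0.57), as was Lig4 without the first R35K library of 1 hpi (−0.57). The median difference of the 10 was −0.48, against 0.01 over all genes. R35A and R35K were not tested against each other, and both comparisons share the wild-type libraries.

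At 3 hpi 1 of the 10 was called in R35K cells, Dntt at −0.74, against 3.87% of all genes lower and 6.14% higher. This count rose to 2 or 3 without 1 of the libraries of 3 hpi: Rag1 passed at 0.65 without the first wild-type library, Rag2 at −0.72 and Lig4 at −0.59 without the second, and Rag2 at −0.67 without the second R35K library. At 6 hpi Dclre1c was lower at −0.63 and Rag1 was higher at 0.99 (95% interval 0.73 to 1.26, adjusted p = 1.05e-08), against 4.53% of all genes lower and 7.66% higher. Rag2, the neighbour of Rag1 in the genome, had a difference of 0.13 at 6 hpi (95% interval −0.27 to 0.53). At 18 hpi Dntt was higher at 1.02 (95% interval 0.74 to 1.31, adjusted p = 2.83e-08), against 8.91% of all genes higher and 4.42% lower, and Rag1 passed at 0.71 (adjusted p = 0.0185) without the second wild-type library of 18 hpi. Of all genes called at 18 hpi, 33.2% were lower, against 47.25% under DESeq2's size factors and 44.6% under DESeq2. At 120 hpi Xrcc5 at 1.11 (adjusted p = 2.43e-05) and Lig4 at 0.70 (adjusted p = 0.00569) were higher, against 7.51% of all genes higher and 2.63% lower, and Lig4 was lost without the first wild-type library of 120 hpi (0.62, adjusted p = 0.0694).

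**Figure D4:**
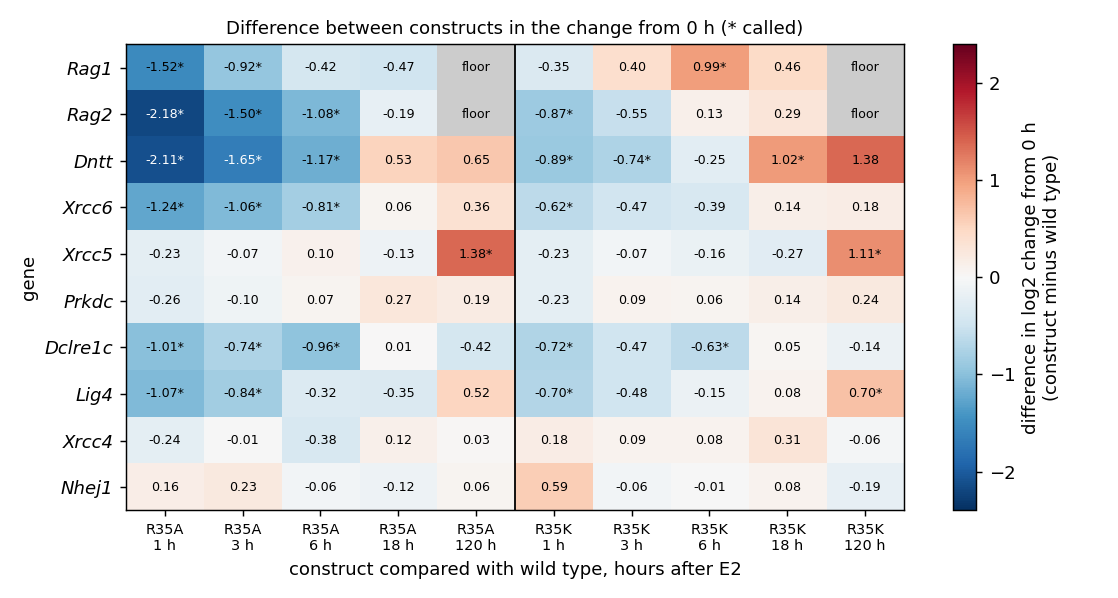
Difference between constructs in the log2 change from 0 hr, R35A or R35K minus wild type, for the 10 genes (rows) at each time (columns). An asterisk marks an adjusted p of at most 0.05 with a fold of at least 1.5, and grey cells a group at 3 or fewer counts in every library. The 6 starred R35A cells at 1 hpi run from −2.18 for Rag2 to −1.01 for Dclre1c, and Xrcc5 at 120 hpi is starred for both constructs at 1.38 and 1.11.

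The B-lineage marker sum moved with these differences at 1 hpi and not at every later time. At 1 hpi it was 933 to 938 CPM in wild-type, 276 to 283.5 in R35A and 488 to 489.5 in R35K libraries, the order in which Rag1, Rag2, Dntt, Xrcc6, Prkdc, Dclre1c and Lig4 stood. At 6 hpi it was 726 CPM in both wild-type and 479.6 to 487 in R35K libraries, the opposite order to that of Rag1. At 18 hpi it was 188 to 191 CPM in wild-type, 113 to 117 in R35A and 179 to 187 in R35K libraries. Wild type, with the highest sum, had the lowest Dntt level at that time. At 120 hpi the sum was 126.5 to 133 CPM in wild-type, 54.98 to 59.3 in R35A and 91.8 to 92.3 in R35K libraries. This was the opposite order to that of Xrcc5, and Lig4 was also lowest in wild type. The fibroblast marker sum at 120 hpi was 122 to 144 CPM in wild-type, 433 to 451 in R35A and 322 to 383 in R35K libraries, the order of Xrcc5 and not of Lig4. The part of these cells in the results was not tested.

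The genes around the members were read from GENCODE vM21 in mm10 coordinates. Rag1 (chr2:101638282-101649501, minus strand) and Rag2 (chr2:101624718-101632529, plus strand) lie side by side, and B230118H07Rik spans both from chr2:101560781-101649532 on the minus strand. Its exons share 80 bases with those of Rag1 on the same strand and 208 with those of Rag2 on the opposite one. It stayed between 6.33 and 8.87 CPM as group means of wild-type cells over the course, while Rag1 went from 82.3 to 0.232. Traf6, 28928 bases beyond Rag1, fell from 223 to 111 CPM in wild-type cells at 18 hpi (2.02-fold, adjusted p = 2.78e-29). Gm10800, by the annotation's gene types the nearest protein-coding gene on the Rag2 side at 2957417 bases, was 4.42-fold higher at 18 hpi (8.54 against 1.92 CPM, adjusted p = 1.42e-13).

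Mcm4, a subunit of the replicative helicase, starts 466 bases from Prkdc on the opposite strand, and it fell 5.63-fold by 18 hpi in wild-type cells (285 to 50.7 CPM) where Prkdc fell 2.31-fold. Abhd13 starts 21 bases from Lig4 on the opposite strand, and it went from 61.6 to 59.1 CPM at 18 hpi (1.05-fold, adjusted p = 0.291) where Lig4 fell 4.53-fold. Tmem167, whose exons share 112 bases with those of Xrcc4, was at 96.0 CPM at 0 hr and 105 at 120 hpi (adjusted p = 0.908) where Xrcc4 rose 2.19-fold. The exons of Suv39h2 share 357 bases with those of Dclre1c on the opposite strand. Suv39h2 was at 8.82 CPM at 0 hr, 8.80 at 1 hpi and 12.6 at 120 hpi in wild-type cells, where Dclre1c was at 24.7, 71.2 and 243 CPM. Desi1, which shares 344 bases with Xrcc6 on the opposite strand, went from 113 to 101 CPM by 1 hpi in wild-type cells and stood at 53.2 CPM at that time in R35A cells. In the R35A minus wild-type difference of 1 hpi, Desi1 (log2 −0.92, adjusted p = 3.28e-17) and Suv39h2 (log2 −0.84, adjusted p = 0.000281) were called lower together with Xrcc6 and Dclre1c. The libraries were stranded, but the strand setting of the counting is not given in the sources used here, so that reads in the shared bases are uncertain.

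The genes whose pattern was most like that of the recombinase genes over the 18 group means were ranked by Pearson's r of log2 CPM among 17277 genes. For Rag1 these were Scn4a (r = 0.992), Ighg2b (0.991), Cpm (0.989), Vpreb2 (0.988) and Klhl14 (0.988). For Rag2 they were Gm37065 (0.996), Sit1, Ebf1, Mzb1 and Chst3 (each 0.995). For Dntt they were Ikzf3 (0.995), Blk (0.994), Ltk (0.994), Pou2af1 (0.993) and Tmprss3 (0.993). Vpreb2 is a surrogate light chain of pre-B cells, Ebf1 and Ikzf3 are B-lineage transcription factors, Pou2af1 encodes OBF-1, a B-lineage coactivator of Oct factors, and Blk is a kinase of B cell receptor signalling. Ranked by Spearman's rho instead, 1 of the 5 for Rag1 and 0 of the 5 for Rag2 and Dntt stayed in the list, so the names depend on the measure. Among the members, Rag1 correlated with Rag2 at r = 0.982 and with Dntt at 0.976, and Rag2 with Dntt at 0.985. These are descriptions over group means that share the libraries and the common course.

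Of 11 other classical end-joining genes and RAG cofactors, 10 were tested, and in wild-type cells 4, 8 and 4 were called lower at 1, 18 and 120 hpi and 0 higher. The shares of all genes called lower were 9.27%, 23.2% and 40.2%, so that the 4 of 10 at 120 hpi stood at the background. Their median log2 change at 18 hpi was −0.90, against 0.02 over all genes. Hmgb2, a DNA-bending cofactor of RAG, had the largest fall, from 71.0 and 83.8 CPM at 0 hr to 11.4 and 13.5 at 120 hpi (6.81-fold, adjusted p = 9.45e-31). Of the 7 end-joining members, 4 were called lower and 3 higher at 120 hpi, against 40.2% and 23.1% of all genes.

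Of 13 genes of break signalling and end protection, with a median log2 change of −0.87 at 18 hpi in wild-type cells, the numbers called lower at 1, 18 and 120 hpi were 4, 10 and 7, against 9.27%, 23.2% and 40.2% of all genes, and those called higher 0, 0 and 1, against 10.7%, 23.9% and 23.1%. H2afx, the histone variant phosphorylated at breaks, fell from 130 and 134 CPM to 30.8 and 31.9 at 120 hpi (4.61-fold, adjusted p = 2.88e-36). 1110034G24Rik, the older symbol of the shieldin subunit Shld1, rose from 1.85 and 2.64 CPM to 7.61 and 8.22 (3.23-fold, adjusted p = 2.36e-10). Of 8 genes of alternative end joining, 4, 7 and 5 were called lower at 1, 18 and 120 hpi and 0 higher, against the same shares of all genes, with a median log2 change of −1.53 at 18 hpi. Lig1, the replicative ligase, fell from 204 and 217 CPM to 42.4 and 42.6 at 120 hpi and had stood at 18.8 and 20.0 CPM at 18 hpi.

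Of 15 genes of homologous recombination, 7, 11 and 10 were called lower at 1, 18 and 120 hpi in wild type and 0 higher, beside 9.27%, 23.2% and 40.2% of all genes lower. In R35A cells 11, 12 and 10 of them were called lower, beside 18.9%, 21.6% and 39% of all genes. The median log2 change at 18 hpi was −2.39 in wild-type cells. Its gene with the largest fitted fall, the meiotic recombinase Dmc1, had 16 counts in the 2 wild-type libraries of 0 hr and 0 at 120 hpi, which is too few for a course, and it was not among the genes tested in the R35K fit. The interaction of R35A and wild type at 1 hpi called 10 of the 15 lower, 3 of 8 of alternative end joining, 2 of 13 of break signalling and 3 of 10 of the other end-joining genes, against 8.74% of all genes.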

How the data were processed

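RNA-seq was measured in 36 libraries, grouped by the construct, time and replicate in the sample titles. Per the labels, poly(A) RNA was made into stranded libraries and sequenced as single-end reads. After a FastQC check, the authors mapped the reads to the mm10 genome by STAR 2.5.0a, whose gene counting mode gave the counts per gene, and they normalised the counts with DESeq2 1.14.1, without pooling replicates. The annotation release and the strand setting of the counting are not given in the sources used here. The deposited gene counts (40354 genes) were whole numbers and not normalised. The deposited log2 values (19067 genes) equalled log2 (count / size factor + 1) to within 5.15e-14, with size factors within 0.65% of those recomputed from all 36 libraries, and were used for this check only. The tables held 72 columns of samples, and 0 were unused.

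Counts were scaled by TMM, filtered with edgeR's filterByExpr and fitted by edgeR 4.0.16's quasi-likelihood test (R 4.3.3, limma 3.58.1), with 1 group per construct and time and no covariates. Wild type and R35A were fitted together (24 libraries, 16988 genes), R35K on its own (12 libraries, 16434 genes), and the R35K minus wild-type differences in a fit of all 36 libraries (17277 genes). P-values were adjusted by the Benjamini-Hochberg method over all genes tested. A call needed a fold of at least 1.5 and an adjusted p of at most 0.05. Tests are two-sided. CPM and the folds with counting intervals used the TMM factors of the fit of all 36 libraries. Log2 CPM used a prior count of 1. A group was taken as at the floor where every library had 3 counts or fewer, a fold against a group at 0 counts is a bound set at 3 counts over the group, and 95% counting intervals are exact and cover counting error only. Total counts were 13044456 to 16546385 per wild-type, 13683736 to 20580185 per R35A and 14668754 to 23131776 per R35K library. The self-test ran on simulated counts before the real tables were fitted.

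The 10 genes and the other lists were chosen with earlier results of these data known. From the lists, 1 B-lineage marker and 1 end-joining gene are not reported here and enter no sum or count of a list. Genes named beside the 10 were, from each other list, the called gene with the largest rise and the largest fall by 120 hr in wild-type cells, the nearest protein-coding gene on each side of Rag1 and Rag2, protein-coding genes starting on the opposite strand within 1 kb of a member's start, and the 5 genes with the highest Pearson's r over the 18 group means. Desi1, Suv39h2 and B230118H07Rik were named for exon overlap after their values were seen. Alternatives were no low-count filter, at least 10 counts, DESeq2's size factors, DESeq2 1.42.0's Wald test, other fold thresholds, other sets of libraries in the fit, each library left out in turn and a replicate block. The paper describes the replicates as biological. Same-numbered replicates did not deviate together (median r = −0.0059 over 153 pairs of groups and 9244 genes, with 22 pairs above 0.1), so the numbers were not taken as pairs. The spread between replicates was 1.088 to 2.463 times the counting noise, so no libraries were merged.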

Additional observations from a re-analysis of the deposited data

Results flagged for a closer look

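The change from 0 hr differed between R35A and wild-type cells, by the interaction test of construct and time, in the following log2 differences (R35A minus wild type). At 1 hpi these were −1.52 for Rag1, −2.18 for Rag2, −2.11 for Dntt, −1.24 for Xrcc6, −1.01 for Dclre1c and −1.07 for Lig4. At 3 hpi they were −0.92 for Rag1, −1.50 for Rag2, −1.65 for Dntt, −1.06 for Xrcc6, −0.74 for Dclre1c and −0.84 for Lig4. At 6 hpi they were −1.08 for Rag2, −1.17 for Dntt, −0.81 for Xrcc6 and −0.96 for Dclre1c, and at 120 hpi 1.38 for Xrcc5.

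Between R35K and wild-type cells the differences at 1 hpi were −0.87 for Rag2, −0.89 for Dntt, −0.62 for Xrcc6, −0.72 for Dclre1c and −0.70 for Lig4. They were −0.74 for Dntt at 3 hpi, 0.99 for Rag1 and −0.63 for Dclre1c at 6 hpi, 1.02 for Dntt at 18 hpi, and 1.11 for Xrcc5 and 0.70 for Lig4 at 120 hpi. No group was large enough to test single libraries for standing apart.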

How the results depend on the processing

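No alternative turned the direction of a called member change. The replicate block changed none of the 26 counts of members called. The called genes were the same (8 of 8 in wild-type cells at 1 hpi, for example). Taken over all pairs of groups, same-numbered replicates did not deviate together. A 2-fold threshold lowered the members called to 4 and 5 in wild-type cells at 1 and 3 hpi, to 5 in R35K cells at 1 hpi, to 3 and 2 for R35A minus wild type at 3 and 6 hpi, to 0 for R35K minus wild type at 1, 3 and 6 hpi and to 1 at 120 hpi. Without a fold threshold they were 3 and 4 for R35A minus wild type at 18 and 120 hpi and 6 and 4 for R35K minus wild type at 3 and 6 hpi. With 1 library left out the counts ranged from 0 to 1 and from 1 to 2 for R35A minus wild type at 18 and 120 hpi, and from 1 to 3, 1 to 2 and 1 to 2 for R35K minus wild type at 3, 18 and 120 hpi. Smaller moves were 9 to 10 in wild-type cells at 120 hpi, 7 to 8 and 8 to 10 in R35A cells at 1 and 120 hpi, 8 to 9 in R35K cells at 120 hpi and 4 to 5 for R35K minus wild type at 1 hpi, and the other comparisons kept their counts. With Spearman's rho, 1, 0 and 0 of the 5 genes most alike stayed for Rag1, Rag2 and Dntt. With 2 replicates, a library left out leaves a group of 1, whose spread is taken from the other groups. The cause of these changes was not tested.

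Member values that changed sign were called neither in the reported fits nor under the alternative that changed them, and no direction is given for them. With DESeq2's size factors these values were, in R35A cells 0.028 for Nhej1 at 1 hpi, and in R35A minus wild type 0.031 for Xrcc4 at 3 hpi, −0.043 for Dclre1c at 18 hpi and −0.0026 for Xrcc4 at 120 hpi, and in R35K cells 0.027 for Xrcc4 at 3 hpi, 0.070 for Nhej1 at 3 hpi, 0.039 for Xrcc4 at 6 hpi and 0.073 for Xrcc4 at 18 hpi, and in R35K minus wild type −0.056 for Dclre1c at 18 hpi, −0.028 for Lig4 at 18 hpi and −0.025 for Nhej1 at 18 hpi. With DESeq2's test these values were, in R35A cells 0.029 for Nhej1 at 1 hpi, and in R35A minus wild type 0.029 for Xrcc4 at 3 hpi, −0.043 for Dclre1c at 18 hpi and −0.0039 for Xrcc4 at 120 hpi, and in R35K cells 0.020 for Xrcc4 at 3 hpi, 0.065 for Nhej1 at 3 hpi, 0.039 for Xrcc4 at 6 hpi and 0.074 for Xrcc4 at 18 hpi, and in R35K minus wild type −0.056 for Dclre1c at 18 hpi, −0.028 for Lig4 at 18 hpi and −0.024 for Nhej1 at 18 hpi. With no low-count filter these values were, in R35K cells 0.018 for Nhej1 at 3 hpi and 0.015 for Xrcc4 at 18 hpi. With only the compared groups in the fit these values were, in R35A minus wild type 0.0078 for Xrcc4 at 3 hpi, −0.045 for Xrcc4 at 120 hpi and −0.0099 for Nhej1 at 120 hpi, and in R35K cells 0.037 for Nhej1 at 3 hpi, 0.014 for Xrcc4 at 6 hpi and 0.0002 for Xrcc4 at 18 hpi. With all 36 libraries in the fit these values were, in R35K cells 0.038 for Nhej1 at 3 hpi, 0.023 for Xrcc4 at 6 hpi and 0.036 for Xrcc4 at 18 hpi. With the minimum of 10 counts these values were, in R35A minus wild type 0.013 for Xrcc4 at 3 hpi. With 1 library left out, such values ran over these ranges of log2. Xrcc4 ranged from −0.095 to 0.064 at 3 hpi, −0.035 to 0.077 at 120 hpi and −0.081 to 0.025 at 0 hr in R35A minus wild type, −0.0012 to 0.26 at 1 hpi in wild-type cells, −0.19 to 0.052 at 3 hpi, −0.13 to 0.060 at 6 hpi and −0.094 to 0.092 at 18 hpi in R35K cells, −0.14 to 0.044 at 120 hpi and −0.058 to 0.19 at 3 hpi in R35K minus wild type. Dclre1c ranged from −0.036 to 0.048 at 18 hpi and −0.061 to 0.024 at 0 hr in R35A minus wild type, −0.0072 to 0.11 at 18 hpi in R35K minus wild type. Dntt ranged from −0.021 to 0.0078 at 0 hr in R35A minus wild type. Xrcc5 ranged from −0.080 to 0.030 at 0 hr in R35A minus wild type, −0.21 to 0.032 at 3 hpi in R35K minus wild type. Nhej1 ranged from −0.032 to 0.075 at 0 hr, −0.049 to 0.37 at 1 hpi, −0.30 to 0.11 at 6 hpi, −0.39 to 0.28 at 18 hpi and −0.15 to 0.26 at 120 hpi in R35A minus wild type, −0.41 to 0.007 at 1 hpi and −0.25 to 0.42 at 18 hpi in wild-type cells, −0.021 to 0.067 at 18 hpi, −0.15 to 0.072 at 1 hpi and −0.068 to 0.34 at 6 hpi in R35A cells, −0.12 to 0.11 at 3 hpi in R35K cells, −0.17 to 0.13 at 6 hpi, −0.18 to 0.063 at 3 hpi and −0.20 to 0.47 at 18 hpi in R35K minus wild type. Lig4 ranged from −0.19 to 0.001 at 0 hr in R35A minus wild type. Prkdc ranged from −0.0032 to 0.12 at 6 hpi in R35A minus wild type, −0.020 to 0.13 at 6 hpi in R35K minus wild type. Rag1 ranged from −4.81 to 0.51 at 120 hpi in R35A minus wild type, −4.86 to 0.87 at 120 hpi in R35K minus wild type. Rag2 ranged from −0.40 to 0.79 at 18 hpi and −0.074 to 3.39 at 120 hpi in R35K minus wild type. At 120 hpi Rag1 and Rag2 stood at 5 counts or fewer per pair, so that their fitted values are no measure of size.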
